A study of Rattus norvegicus with 6 samples.

Results

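Podocytes are the epithelial cells that wrap the capillaries of the glomerulus, the filter of the kidney. The probe sets of 7 podocyte genes were examined here in whole-kidney RNA of congenic and Dahl S rats. The genes were Nphs1, Podxl, Wt1, Synpo, Cd2ap, Ptpro and Magi2, and every probe set that the platform annotation assigns to one of these symbols was taken. This gave 12 of the 31042 non-control probe sets, for 6 of the 7 genes, out of 14217 genes named on the array. Magi2 had no probe set listed under its symbol and was not analysed here.

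The congenic rats carry, on the Dahl salt-sensitive (S) background, a segment of chromosome 9 that their strain name gives as coming from R. The S rats were the controls. All rats were male, ate a diet with 2% salt and were 53 days old, and both groups share the S genome outside the segment. RNA of 2 rats was pooled into each sample, and 3 pools per strain were hybridised to 1 Affymetrix Rat 230 2.0 array each. The title of the series places a blood pressure locus in the segment, and the arrays address how the segment changes gene expression in the kidney.

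The interlocking foot processes of neighbouring podocytes are joined by the slit diaphragm, a cell junction through which the filtrate passes. Nephrin, the product of Nphs1, spans the slit, CD2AP and the scaffold MAGI2 bind at its cytoplasmic side, and synaptopodin (Synpo) bundles and steadies the actin of the foot process. Podocalyxin (Podxl) is a charged sialomucin of the upper membrane that keeps foot processes apart, PTPRO (also called GLEPP1) is a receptor-type tyrosine phosphatase of the same membrane, and WT1 is the zinc finger transcription factor that maintains podocyte identity. Injury to podocytes is a known source of protein in the urine of Dahl S rats.

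WT1 is known from rodent and human work to activate Nphs1 and Podxl through GC-rich elements. The 250 bases before the RefSeq start are therefore shown for these genes and for Cd2ap, which lies on the chromosome of the introgressed segment (RefSeq, GRCr8). That assembly is of the BN strain, so bases in which S or R rats differ from it are not shown. The stretches were chr1:94848011-94848260 on the plus strand for Nphs1, chr4:61149132-61149381 on the minus strand for Podxl, and chr9:25583725-25583974 on the plus strand for Cd2ap. Capitals mark matches, on either strand, to the pattern GNGNGGGNG, which covers both the early growth response type element GCGGGGGCG and the WT1 type element GCGTGGGAG.
Nphs1: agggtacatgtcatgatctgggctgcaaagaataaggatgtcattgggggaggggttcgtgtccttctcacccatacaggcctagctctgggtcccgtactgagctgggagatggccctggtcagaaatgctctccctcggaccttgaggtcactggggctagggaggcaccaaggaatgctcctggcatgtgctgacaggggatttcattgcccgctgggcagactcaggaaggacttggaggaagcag
Podxl: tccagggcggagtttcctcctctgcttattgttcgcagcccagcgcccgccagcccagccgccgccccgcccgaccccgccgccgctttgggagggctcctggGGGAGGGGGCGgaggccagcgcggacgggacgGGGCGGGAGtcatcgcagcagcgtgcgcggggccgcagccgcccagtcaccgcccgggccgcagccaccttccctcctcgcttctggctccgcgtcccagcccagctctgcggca
Cd2ap: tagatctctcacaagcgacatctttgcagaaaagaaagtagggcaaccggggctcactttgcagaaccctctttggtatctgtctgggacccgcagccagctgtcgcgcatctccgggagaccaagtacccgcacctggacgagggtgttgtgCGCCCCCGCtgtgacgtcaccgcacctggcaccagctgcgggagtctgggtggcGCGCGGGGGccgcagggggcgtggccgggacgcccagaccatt
Nphs1 had no match to the pattern in this stretch and a GC content of 57.2%. Podxl had 3 matches, 2 of them overlapping, and a GC content of 76.4%. Cd2ap had 2 matches, of which the one that begins 97 bases before the start was GCGGGGGCG on the minus strand. None of these stretches held the WT1 type element GCGTGGGAG, and the matches of Podxl were to the wider pattern only. Of 33469 upstream stretches of the same length, 33.0% held the pattern, 2.45% held GCGGGGGCG and 0.338% held GCGTGGGAG. The matches are a description of letters, and the arrays did not measure binding.

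No podocyte gene passed limma's test of a difference between the strains. Of the 12 probe sets, 6 had a mean signal above the filter for dim probe sets (the 40th percentile, a signal of 25.6), 1 for each measured gene, and were tested on log2(signal + 16). Their log2 fold changes, congenic minus S, ran from -0.27 for Nphs1 to 0.17 for Wt1, with a median of 0.0078 over the 6 genes, against -0.0068 over all 10658 tested genes. Called at an adjusted p under 0.05 were 0 of the 6, and the percentage called over all 18625 tested probe sets was 0 as well. At an unadjusted p under 0.05, where limma put 6.61% of all tested probe sets, there were also 0 of the 6. Least squares without moderation gave 0 of 6, and limma with the replicate number as a block gave 1 of 6, Nphs1 (unadjusted p = 0.0481). The groups overlapped for all 6 tested probe sets, whereas 12.5% of all probe sets had no overlap.

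For the tested probe set of each gene, the arrays bound the size of a difference. The 95% interval of the log2 fold change included 0 for 6 of 6 genes, and for 5 of 6 it lay within a change of 1.5-fold either way in signal + 16. The exception was Nphs1, whose interval allowed a congenic value of signal + 16 of 0.658 to 1.05 times that of S. A dim probe set of Synpo, fitted without a filter and described below, had an interval of 1.08 to 2.03 times. Such ratios understate those of the signal itself, most of all for dim genes. With 1 in place of 16 added, the log2 fold change of Nphs1 was -0.31 (SE 0.17). The log2 fold changes of 3 of 6 members (Podxl, Synpo and Cd2ap) lay inside the interquartile range of all genes, -0.081 to 0.067. In whole-kidney RNA, fewer podocytes and less RNA per podocyte cannot be told apart. Kidney RNA also holds some of these transcripts from other cells, since Cd2ap is expressed in tubules and Podxl in endothelium.

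**Figure D1:**
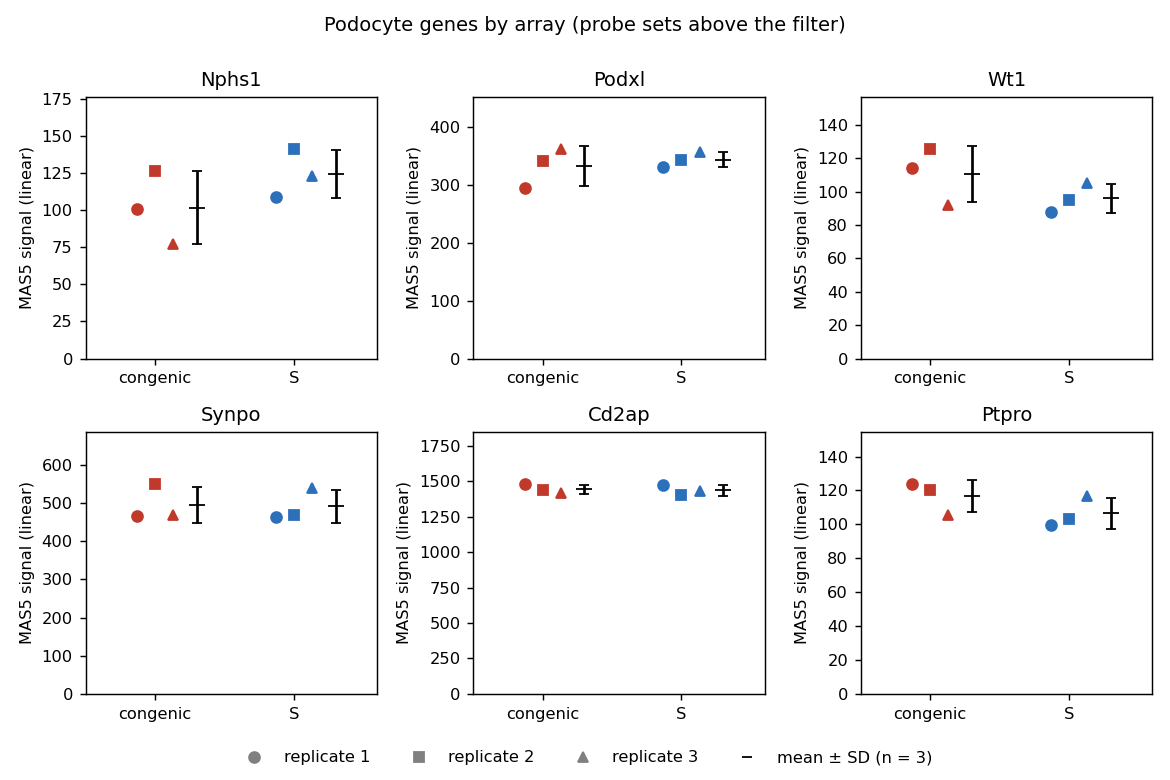
MAS5 signal (linear) of the 6 tested podocyte probe sets on each array, congenic at the left in red and S at the right in blue, with the mean ± SD (n = 3) beside the points. The groups overlap in every panel, and Nphs1 has the lowest point on congenic replicate 3, at 77.4.

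Nphs1, at the slit diaphragm, had signals of 101, 127 and 77.4 on congenic arrays 1 to 3, against 109, 141 and 123 on S arrays 1 to 3. The lowest congenic array was replicate 3 and the highest array of all was S replicate 2, while congenic replicate 2 lay above 2 of the S arrays. The means were 101.7 ± 24.5 in congenic and 124 ± 16.2 in S pools (SD, n = 3 each), which put the log2 fold change at -0.27 (SE 0.15, adjusted p = 0.785 by limma). The value depended on single arrays. Without congenic replicate 3 the log2 fold change was -0.11, and without congenic replicate 2 it was -0.42 (unadjusted p = 0.0164, adjusted p = 0.884 by limma). Without S replicate 1 or S replicate 2 it was -0.35 or -0.18. Against congenic replicate 2 alone, the spread then coming from S pools only, it was 0.028.

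Congenic replicate 3 also carried transcripts of the adrenal gland. The summed signal of 6 of 6 adrenal marker genes was 5507 there, 138 to 143 on the other congenic arrays and 134 to 143 on the S arrays. Congenic replicate 1 carried liver transcripts, with a sum over 6 of 6 liver markers of 9413, against 131 and 136 on the other congenic arrays and 105 to 196 on the S arrays. None of these markers was at 0 on every array. The part of either tissue in the Nphs1 value was not tested.

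Cd2ap, whose product ties nephrin to the cytoskeleton, varied least among the members. Its signals were 1479, 1437 and 1415 on congenic arrays 1 to 3, against 1475, 1402 and 1432 on S arrays 1 to 3. Both groups covered the same narrow band, with coefficients of variation of 2.24% in congenic and 2.54% in S pools. The means were 1444 ± 32.4 in congenic and 1436 ± 36.5 in S pools (SD, n = 3 each), which put the log2 fold change at 0.0071 (SE 0.051, adjusted p = 0.983 by limma). Its 95% interval limited the congenic value of signal + 16 to between 0.929 and 1.09 times that of S. By the GRCr8 annotation Cd2ap was the 1 member on chromosome 9, which carries the introgressed segment, and whether it lies within that segment was not analysed here. Of the tested genes named from the lists below, Clic5, Col4a4, Vegfa and Des are also on chromosome 9, and their place relative to the segment was not analysed either.

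Of the genes of the upper membrane, Podxl had signals of 294, 341 and 362 on congenic arrays, against 331, 343 and 356 on S arrays. The congenic arrays enclosed all 3 S arrays, with replicate 1 the lowest and replicate 3 the highest of the 6. The means were 332 ± 34.9 in congenic and 343 ± 12.6 in S pools (SD, n = 3 each), which put the log2 fold change at -0.049 (SE 0.085, adjusted p = 0.926 by limma). Without congenic replicate 1, on which liver transcripts stood out, the value was 0.033. Ptpro had signals of 124, 121 and 106 on congenic arrays, against 99.5, 103 and 117 on S arrays. Congenic replicate 1 and congenic replicate 2 lay above all S arrays, and congenic replicate 3 lay among them. The means were 117 ± 9.58 in congenic and 107 ± 9.20 in S pools (SD, n = 3 each), which put the log2 fold change at 0.11 (SE 0.099, adjusted p = 0.843 by limma). Without S replicate 1, S replicate 3 or congenic replicate 3 the value was 0.072, 0.17 and 0.17.

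Synpo, the actin-associated member, had signals of 466, 549 and 469 on congenic arrays, against 464, 469 and 541 on S arrays. Each group held 1 high and 2 low arrays, so that the values of one nearly repeated those of the other. The means were 494 ± 47.3 in congenic and 491 ± 43.0 in S pools (SD, n = 3 each), which put the log2 fold change at 0.0085 (SE 0.087, adjusted p = 0.989 by limma). Leaving out each array in turn moved it between -0.067, without congenic replicate 2, and 0.077, without S replicate 3.

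Wt1, the transcription factor, had signals of 114, 126 and 92.2 on congenic arrays, against 88.0, 94.9 and 104.9 on S arrays. Congenic replicates 1 and 2 lay above all S arrays, and congenic replicate 3 lay below S replicates 2 and 3. The means were 111 ± 16.9 in congenic and 95.9 ± 8.53 in S pools (SD, n = 3 each), which put the log2 fold change at 0.17 (SE 0.12, adjusted p = 0.811 by limma). Without congenic replicate 3, the array with adrenal transcripts, it was 0.28 (unadjusted p = 0.0355, adjusted p = 0.836 by limma). Without congenic replicate 2 it was 0.086. Nphs1 and Podxl, known targets of WT1, had negative fold changes where Wt1 had a positive one. None of these 3 passed the test and all 3 intervals included 0, so the signs do not inform on WT1 and its targets. Marker genes of mesothelium, a lining that also expresses Wt1, summed over 4 of 6 symbols to 810 to 865 on congenic and 806 to 939 on S arrays. That sum was largely the signal of Gpm6a, whose mean over all arrays was 711.

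**Figure D2:**
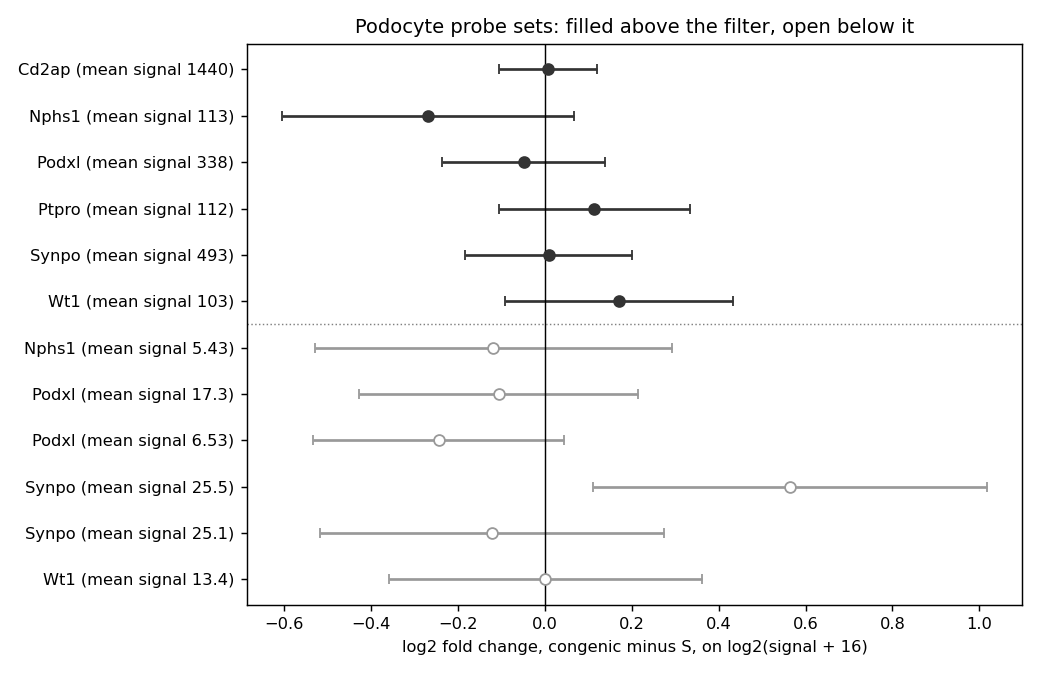
Log2 fold change, congenic minus S, with its 95% interval for the 12 podocyte probe sets, filled for the 6 that passed the filter and open for the 6 below it (fitted without a filter). The filled intervals all include 0, and the interval of 1 open probe set, of Synpo, does not.

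The 6 probe sets below the filter belonged to Nphs1 (1), Podxl (2), Wt1 (1) and Synpo (2). With all 6 arrays they were fitted without a filter only. With an array left out the filter was set anew, and a dim member probe set could then pass it. Without S replicate 3, the lowest adjusted p by limma was 0.539 over the member probe sets and 0.626 over the 6 tested above. Of these, 2 had a positive and 4 a negative log2 fold change. The dimmest were the second probe set of Nphs1, with a mean signal over all arrays of 5.43, and one of Podxl, with 6.53. The second probe set of Wt1 had signals of 16.5, 15.9 and 8.25 on congenic arrays, against 11.6, 12.0 and 16.4 on S arrays. Its log2 fold change of 0.00095 (SE 0.16) did not repeat the 0.17 of the brighter probe set. For Podxl, the dim probe sets were at -0.24 and -0.11, on the same side of 0 as the tested one.

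For Synpo the probe sets disagreed. The probe set that the annotation lists with a RefSeq transcript of Synpo had signals of 39.9, 38.4 and 22.7 on congenic arrays, against 13.2, 24.3 and 14.9 on S arrays. Congenic replicates 1 and 2 were the highest and congenic replicate 3 lay below S replicate 2. The means were 33.6 ± 9.53 in congenic and 17.4 ± 6.03 in S pools (SD, n = 3 each), which put the log2 fold change at 0.56 (SE 0.20, unadjusted p = 0.0206, adjusted p = 0.841 by limma). Its mean of 25.5 lay just under the filter of 25.6. The third probe set, with a mean of 25.1, stood at -0.12 on the same scale (SE 0.17), and the tested, brighter one stood at 0.0085. The gene therefore had values in both directions, and the one past an unadjusted p of 0.05 was dim.

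**Figure D3:**
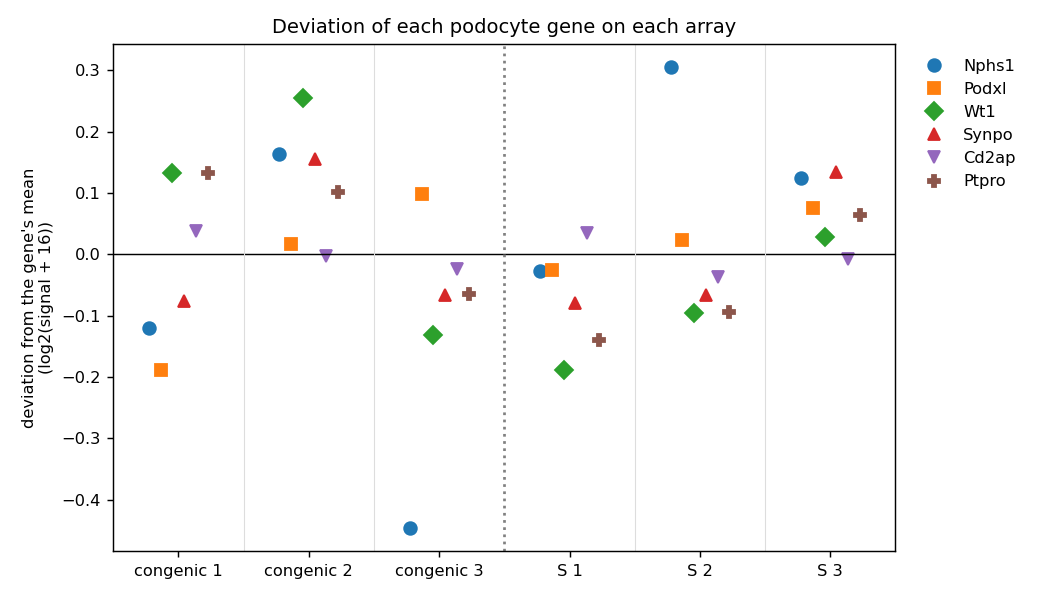
Deviation of each tested podocyte gene from its own mean over the 6 arrays, on log2(signal + 16), congenic arrays at the left. The genes do not move as a block: on congenic replicate 3 Nphs1 lies at -0.45 and Podxl at 0.098, and on S replicate 2 Nphs1 lies at 0.31 and Wt1 at -0.096.

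Among themselves the members did not follow one order of arrays. S replicate 1 had the lowest signal for 3 of 6 members (Wt1, Synpo and Ptpro), and congenic replicates 1 and 2 each had the highest for 2. The median deviation over the 6 members was 0.13 on congenic replicate 2 and 0.070 on S replicate 3, and lay between -0.066 and -0.019 on the other arrays. Each strain thus held 1 array with a median above 0 and 2 below it. S replicate 1 also had the highest 3' over 5' ratio of actin, a sign of RNA degradation, at 9.42, where the other S arrays had 8.13 and 6.54 and the congenic arrays 6.15, 6.64 and 7.17. The part of RNA integrity in the members' values was not tested.

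The genes whose pattern over the 6 arrays was most like that of Nphs1 were Spag9, Xrcc5, Txlna, Unkl and Rufy3, with Pearson correlations of 0.992, 0.980, 0.978, 0.973 and 0.968 on log2(signal + 16). They were the highest of 14044 probe sets compared, of which 92 exceeded 0.9, and with 6 arrays such values are a description only. Like Nphs1, these genes were lowest on congenic replicate 3 and highest on S replicate 2. The correlation of Nphs1 with the other members was between -0.18 for Cd2ap and 0.42 for Synpo. No podocyte gene was among the 5.

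**Figure D4:**
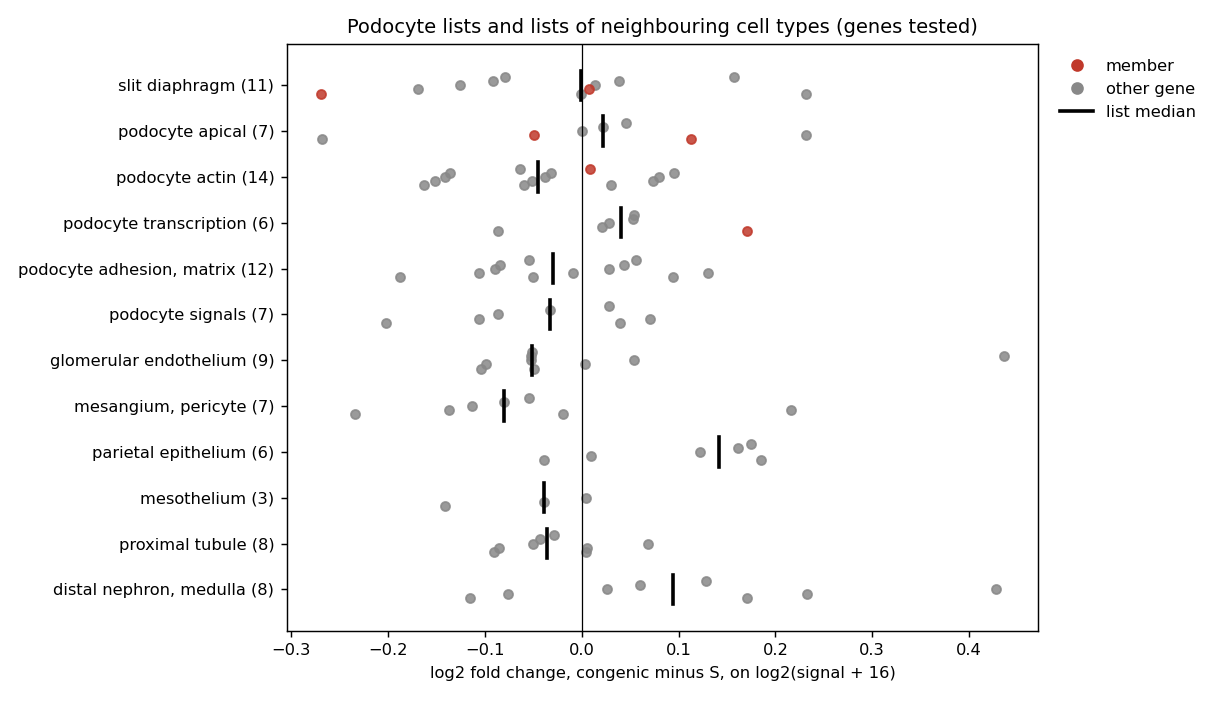
Log2 fold change, congenic minus S, of each tested gene in the podocyte lists and the lists of neighbouring cell types, with the number of genes in brackets, members in red and the list median as a bar. The podocyte medians lie between -0.045 and 0.041, and those of parietal epithelium (0.14) and of distal nephron and medulla (0.094) lie farthest from 0.

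The other podocyte genes gave a similar picture. Of 70 symbols beside the members, 51 were tested, 9 lay below the filter and 10 had no listed probe set, among them Lmx1b, Kirrel1 and Col4a3. Of the 51, 24 had a positive and 27 a negative log2 fold change, with a median of -0.0087. Limma called 0 of the 51. At an unadjusted p under 0.05 there was 1 of 51, or 1.96%, against 6.61% of all probe sets, and 6 of 51, or 11.8%, had no overlap between the groups, against 12.5%. Both shares were near or below the background.

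That gene was Fat1, a giant protocadherin found at the slit diaphragm. It averaged 1757 ± 83.7 in congenic and 1497 ± 128 in S pools (SD, n = 3 each), which put the log2 fold change at 0.23 (SE 0.069, unadjusted p = 0.00708, adjusted p = 0.71 by limma). The remaining genes without overlap were Cd151, an integrin-associated tetraspanin, at 0.13, and, with negative values, the kinase Fyn, which phosphorylates nephrin, at -0.17, the basement membrane collagens Col4a4 and Col4a5 at -0.19 and -0.090, and the basement membrane proteoglycan Agrn at -0.084. None of them passed the adjusted test.

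By role, the 11 tested slit diaphragm genes, Nphs1 and Cd2ap included, had a median of -0.00092, with 5 positive and 6 negative values. Summed over 14 of 18 symbols, Fat1 among them, slit diaphragm signals were 5540 to 5585 on congenic and 5240 to 5518 on S arrays. These sums did not overlap between the strains, but Fat1 was the brightest gene in them and did not overlap itself. With the signal of Fat1 taken out, the sums of the strains overlapped. The sums of the other podocyte lists overlapped. Nck1, an adaptor that links phosphorylated nephrin to actin, was at 0.16. The 7 apical genes had a median of 0.022, with the podocalyxin-binding scaffolds Nherf1 at 0.046 and Nherf2 at 0.23 and the chloride channel family member Clic5 at -0.27. The 14 actin genes had a median of -0.045, with Arhgap24, a GTPase-activating protein, at -0.038, Rhpn1 at -0.15 and Ddn (dendrin) at -0.16. Of these 32 genes, none but Fat1 had an unadjusted p under 0.05.

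Of the 6 tested transcription genes, with a median of 0.041, 5 had positive values. Nfat5 was at 0.054 and Cdkn1c, a cell cycle inhibitor of mature podocytes, at -0.087. The 12 adhesion and matrix genes had a median of -0.030, with the integrin subunit Itgb1 at 0.094. The 7 signals and receptors had a median of -0.033. Vegfa, the growth factor that podocytes supply to the glomerular endothelium, averaged 822 ± 12.3 in congenic and 805 ± 116 in S pools (SD, n = 3 each), which put the log2 fold change at 0.039. Thsd7a was at -0.20 and the ephrin Efnb1 at -0.11. Of the last 3 lists, 0 genes had an unadjusted p under 0.05.

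Markers of the cells next to the podocyte were read in the same way. Summed over 9 of 10 symbols, glomerular endothelial signals were 2683 to 3206 on congenic and 2815 to 3305 on S arrays. The 9 tested genes had a median of -0.051, with Emcn at -0.052, Kdr, a receptor of VEGF, at -0.099 and Ehd3, a glomerular endothelial marker near the filter, at 0.44 (SE 0.18, unadjusted p = 0.0348, limma adjusted p = 0.75). Mesangial and pericyte signals, over 7 of 8 symbols, were 1994 to 2238 on congenic and 2034 to 2389 on S arrays. The median log2 fold change was -0.081, with Pdgfra at -0.055 and Acta2 at 0.22. The intermediate filament gene Des was at -0.23 (SE 0.097, unadjusted p = 0.0369, limma adjusted p = 0.75) and did not overlap between the groups. For both lists the sums of the strains overlapped, the mesangial and pericyte sum being largely the signal of Pdgfra.

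Parietal epithelial markers did not overlap in sum, at 2537 to 2691 on congenic and 2386 to 2463 on S arrays over 6 of 6 symbols. Their median was 0.14, with 5 of 6 genes positive, Pax8 at 0.19, Cldn1 at 0.18, Krt8 at 0.010 and Pax2 at -0.039, and several of them are also expressed in tubules. The distal nephron and medulla list did not overlap either, at 17295 to 17619 on congenic and 16148 to 16389 on S arrays over 8 of 8 symbols, with 6 of 8 genes positive, Umod at 0.026, Aqp2 at 0.23, Aqp3 at 0.43, Slc12a3 at -0.077 and Calb1 at -0.12. Proximal tubule sums were 25465 to 26214 on congenic and 25187 to 27311 on S arrays, with Lrp2 at -0.086, Aqp1 at 0.069 and Kap at 0.0042. In none of these lists did limma call a gene. The part of the mix of kidney regions in the podocyte values was not tested.

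**Figure D5:**
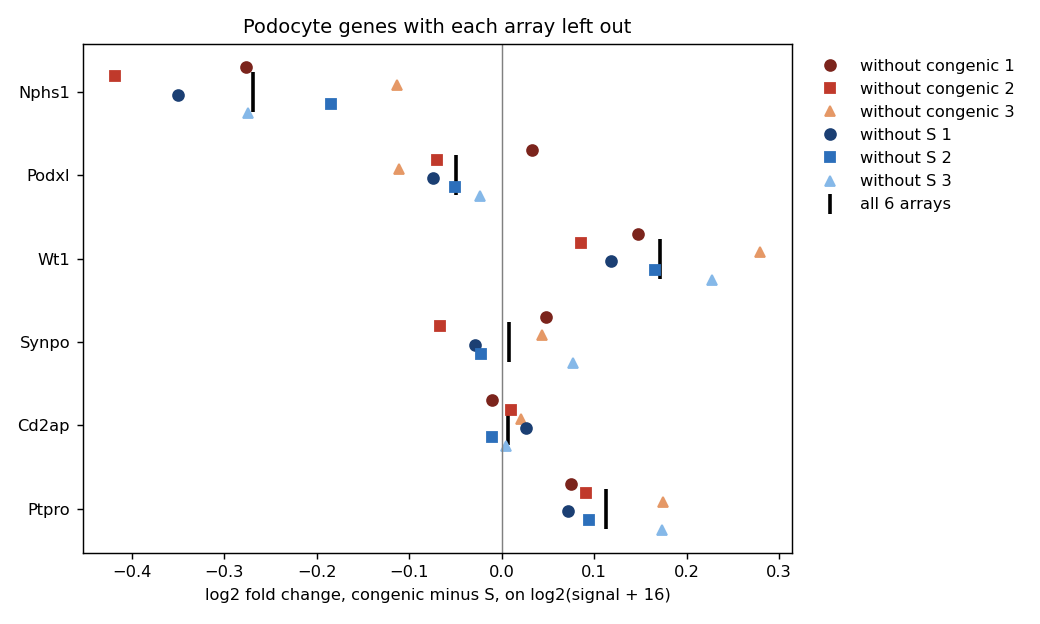
Log2 fold change, congenic minus S, of the 6 tested podocyte genes with all 6 arrays (bar) and with each array left out (points). Cd2ap stays within -0.010 and 0.026, and Nphs1 ranges from -0.42 to -0.11.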

How the data were processed

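Kidney RNA of 3 congenic and 3 S pools was measured on 6 arrays, grouped by the sample titles. The authors deposited an intensity for each probe set, the linear MAS5 signal, as named per the submitters' processing notes. Of its version, its target and any detection calls, nothing is given in the sources used here. On every array, the mean signal without the highest and lowest 2% was 150.0, so a change shared by most transcripts is invisible. Spearman correlations between arrays were 0.969 to 0.977. The number of arrays limits the precision.

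Members were matched on the platform symbol, and other genes by symbols updated through the gene ID to GRCr8 (20758 of 20826 probe sets with 1 symbol matched, while 436 had several symbols and 9780 had none). On log2(signal + 16), which understates fold changes of dim probe sets, probe sets with a mean signal at or above the 40th percentile entered limma 3.58.1 (R 4.3.3, lmFit and eBayes with trend, 2-sided, Benjamini-Hochberg over 18625 probe sets), and the fit was tested on simulated data. With 3 arrays a group, the smallest p of an exact permutation test is 0.1. A gene was represented by its brightest probe set. Named beside the members were, per list, the 2 genes of smallest p and the brightest, the genes without overlap and the markers Pax2, Slc12a3 and Calb1 (named after their values were seen) and the 5 most like Nphs1. The members and lists were chosen with earlier results of these data known. The pools came from different rats, and pooling reduces the variation between rats.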

Additional observations from a re-analysis of the deposited data

How the results depend on the processing

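Alternatives were other pseudocounts, filters, normalizations, variance priors, array weights, least squares without moderation, the replicate block, each array left out, congenic array 2 alone, and the median over a gene's tested probe sets. Each measured member had 1 tested probe set, so this median repeated the main value and left out the dim probe sets. Calls were counted under 18 of the 19 alternatives (the median over probe sets has no test), with 0 podocyte member probe sets and 0 of the other podocyte genes called under each of the 18. Over all tested probe sets, 1 was called without congenic replicate 2 and 0 under every other alternative. The podocyte counts therefore do not differ from those of the whole array. By construction 7 alternatives leave the members' fold changes as they are. Under the other 12, 64 of 72 fold changes of the 6 member genes had the direction of the chosen settings and 8 turned. Cd2ap was at -0.0086 with quantile normalization, and Nphs1 at 0.028 against congenic array 2 alone, which leaves that group 1 sample, assumed to vary like the S arrays. With each array left out, Synpo ranged from -0.067 to 0.077, Cd2ap from -0.010 to 0.026, Podxl from -0.11 to 0.033, Wt1 from 0.086 to 0.28, Ptpro from 0.072 to 0.17 and Nphs1 from -0.42 to -0.11, and the cause was not tested. The median over the members ranged from -0.028 to 0.041 with an array left out, and was 0.093 against congenic array 2 alone.

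Deviations of same-numbered arrays from their group means correlated at 0.037, 0.014 and 0.021, and those of different-numbered arrays at -0.046 to 0.038. With 3 arrays a group, these values cannot decide whether the replicate numbers of the titles pair the pools. With the replicate block the fold changes of the members were unchanged by construction (Nphs1 -0.27, Podxl -0.049, Wt1 0.17, Synpo 0.0085, Cd2ap 0.0071, Ptpro 0.11, median 0.0078), with 0 calls, while Nphs1 had an unadjusted p of 0.0481 (adjusted p = 0.717 by limma). Signal limits the second probe sets, whose values sit near or under the filter.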
